A study of Mus musculus with 89 samples.

Results

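The 40 genes described here are listed as markers of the cells of blood vessels. Of these, 26 are listed for endothelial cells, which line the vessel. The other 14 are listed for mural cells, the pericytes and smooth muscle cells that wrap it. All 40 were taken by symbol from a list of vascular markers. They are 40 of the 16154 genes with a row in at least 1 of the 3 bulk RNA-seq tables of this mouse study. All 40 had a row in the hippocampus table (14440 genes) and in the Klotho table (14964 genes). In the choroid plexus table (13662 genes) 36 had one, 25 endothelial and 11 mural, while the endothelial transcription factor Erg and the pericyte genes Kcnj8, Higd1b and Ndufa4l2 were not analysed there.

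The first experiment asked how serum from young mice, with or without its extracellular vesicles, acts on the brain of aged wild-type (WT) mice. The study's methods call these mice male, while its figure legends give an equal sex distribution. The mice received 100 µL every 3 days over 25 days of young serum (YS, 12 choroid plexus and 14 hippocampal libraries), of young serum depleted of extracellular vesicles (YDS, 14 and 14 libraries) or, as Sham, of saline (8 and 10 libraries). The second experiment asked what loss of Klotho (Kl), an ageing-related protein made in the kidney and by choroid plexus epithelium, does to brain gene expression, and compared Klotho knockouts at 2 months of age (Klko, n = 4) with WT of that age (WT-y, n = 4) and Klotho heterozygotes at 9 months (Klhet, n = 5) with WT of that age (WT-o, n = 4). The labels name no other allele or treatment in these mice, and genotype and age change together between the Klko and Klhet comparisons. The titles call all 72 infused libraries young serum infusions and give their tissue, so each library's arm was read from its column name. All 34 animals with both tissues had the same arm in both. Each mouse gave 1 library per tissue, the mice were perfused with PBS, and the labels name the tissue of the Klotho mice as brain where the study's methods name hippocampus. The extraction text in the labels of the Klotho mice speaks of cortex.

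Brain capillaries are sealed by tight junctions and carry a set of transporters, which together make the blood-brain barrier; pericytes sit on the same basement membrane and help to keep that state. The capillaries of the choroid plexus, which secretes cerebrospinal fluid, are instead fenestrated, with pores closed by diaphragms, and the barrier there lies in the epithelium around them. Both beds are small against the tissue they feed. In these bulk samples, fewer vascular cells and less RNA per vascular cell cannot be told apart.

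The libraries held between 23231524 and 46836730 reads, so that 1 CPM (reads scaled to the library's own total) stood for 23.2 to 46.8 reads. The tissue labels fitted their markers: the summed level of choroid plexus epithelial genes was 152459 to 270788 CPM over 15 markers in choroid plexus, against 93.8 to 2784 CPM over the 7 with a row in hippocampus, and that of hippocampal neuron genes was 88.2 to 470.0 CPM over 6 markers in choroid plexus, against 9549 to 13184 CPM over 10 in hippocampus. The Klotho libraries held 7844 to 11168 CPM of the hippocampal neuron genes. With no cortex library to compare, this sum does not tell hippocampus from cortex. Their choroid plexus epithelial genes spread over 447 to 11079 CPM and their 10 striatal neuron genes over 243 to 2753 CPM. Kl itself was 2.90, 21.2, 23.3 and 18.0 CPM in the Klko libraries, against 237, 66.6, 62.3 and 155 CPM in WT-y, and 84.7, 54.3, 128, 59.3 and 15.6 CPM in Klhet, against 256, 129, 127 and 198 CPM in WT-o. It was therefore lower in every Klko library than in any WT-y library, but above 0 in all of them.

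Single libraries stood apart in the vascular genes. Choroid plexus YS C430 (the arm, then C for choroid plexus or H for hippocampus with the animal number) was the highest of 34 choroid plexus libraries for 29 of the 36 genes, 19 endothelial and 10 mural, with a median log2 ratio of 2.65 to the middle of the table. Its column is the only 1 of the 34 whose name carries an added 2 after the arm; the labels do not say what that marks. Choroid plexus Sham C434 followed at 1.49, then YS C429 at 1.12 and YS C422 at 0.84. Not every gene was raised in YS C430 and Sham C434. Plvap, the gene of the diaphragms of fenestrae, was 5.66 and 5.16 CPM there, below its choroid plexus median of 9.79 CPM. Emcn was 9.56 and 6.17 CPM, with a median of 7.65 CPM. The tight junction gene Cldn5 was 47.4 and 20.6 CPM, with a median of 1.79 CPM. Other cell types were also higher in the same 2 leading libraries: the 6 astrocyte markers summed to 989 CPM in YS C430 and 733 CPM in Sham C434, where the medians were 209 CPM over YS, 160 CPM over YDS and 168 CPM over Sham libraries, and the 2 markers of border macrophages to 86.5 CPM in YS C430 and 25.7 CPM in Sham C434, with a median over all choroid plexus libraries of 3.15 CPM. YS C430 also had the highest sums for microglia (270.0 CPM) and fibroblasts (6294 CPM) in that table. In hippocampus Sham H435 was highest for 17 of 40 genes, at a smaller median ratio of 0.74 and with the highest astrocyte (4653 CPM) and microglial (665 CPM) sums. The part these libraries and cell types play in each result was not tested beyond the values given without them.

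**Figure D1:**
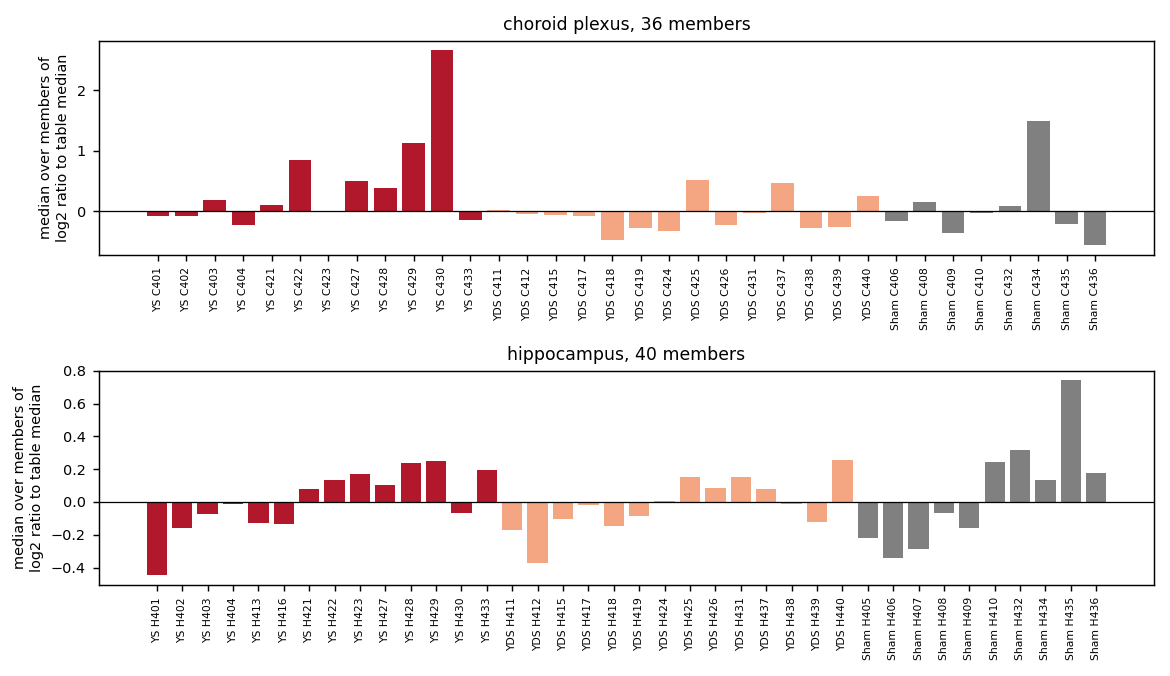
Median, over the vascular genes of a table, of the log2 ratio of each library's CPM to that gene's median over the table, for choroid plexus (36 genes, upper panel) and hippocampus (40 genes, lower panel); 1 bar per library, ordered YS (dark red), YDS (light orange), Sham (grey) and labelled by arm, tissue letter and animal number. YS C430 stands at 2.65 and Sham C434 at 1.49 in choroid plexus, and Sham H435 at 0.74 in hippocampus.

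The clearest difference in the vascular genes lay between the tissues. Of the 36 genes, 25 were lower and 7 higher in choroid plexus than in hippocampus, and their median log2 fold change was −1.35, against 0.04 over the 12609 genes tested (limma on log2(CPM + 0.5), Benjamini-Hochberg adjusted p under 0.05, arm as a term). Since 90.8% of all genes differed between these tissues, 46.6% higher and 44.2% lower, the number of vascular genes called is near the background, and it is the direction that leaned to hippocampus. The endothelial genes had 18 lower and 5 higher of 25 (median −1.44), and the mural genes 7 lower and 2 higher of 11 (median −0.63).

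Among the junction genes, Cldn5, the claudin that seals brain capillaries, was 0.732, 1.79 and 47.4 CPM (lowest, median, highest) in the 34 choroid plexus libraries, against 20.1, 38.8 and 81.5 CPM in the 38 hippocampal libraries, a log2 fold change of −3.74 (SE 0.20, adjusted p 4.11e-29). Only YS C430 and Sham C434 reached into the hippocampal range. Ocln, which codes for occludin, a tight junction protein of epithelia as well as of endothelium, went the other way: it was 55.9, 137 and 169 CPM in choroid plexus, against 6.50, 11.5 and 16.5 CPM in hippocampus, with no overlap (log2 fold change 3.25, SE 0.10, adjusted p 7.04e-45). The adhesion genes Pecam1, Cdh5 (VE-cadherin) and Esam were all lower in choroid plexus, by log2 fold changes of −1.76, −1.45 and −1.78.

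The barrier transporters split in the same manner. Slco1a4, an organic anion transporter, was 153, 201 and 255 CPM in choroid plexus, against 5.88, 12.3 and 36.1 CPM in hippocampus (log2 fold change 3.78, SE 0.12, adjusted p 5.85e-43). Mfsd2a, the lipid transporter that restrains transcytosis in brain endothelium, was 1.15, 2.95 and 7.44 CPM in choroid plexus, against 12.3, 19.8 and 31.3 CPM in hippocampus (log2 fold change −2.52, SE 0.09, adjusted p 2.97e-39). Neither gene overlapped between the tissues. Abcb1a, the P-glycoprotein efflux pump, had a median of 1.92 CPM in choroid plexus, against 30.3 CPM in hippocampus (log2 fold change −3.13), although YS C430 reached 108 CPM. Slc2a1, the glucose transporter GLUT1, which both brain endothelium and choroid plexus epithelium use, was at 104 CPM in choroid plexus and 89.5 CPM in hippocampus (medians), a log2 fold change of −0.02 (SE 0.10, adjusted p 0.876).

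Plvap, which forms the diaphragms of fenestrae, was 3.78, 9.79 and 22.1 CPM in choroid plexus, against 1.96, 5.04 and 11.6 CPM in hippocampus (log2 fold change 0.94, SE 0.14, adjusted p 3.74e-09). The ranges overlapped. Of the vascular endothelial growth factor (VEGF) receptors, Flt1 was lower in choroid plexus (median 7.42 CPM, against 57.5 CPM in hippocampus; log2 fold change −2.66), while Kdr, the main signalling receptor, had medians of 20.8 CPM in choroid plexus and 15.6 CPM in hippocampus and did not pass (log2 fold change 0.15, SE 0.12, adjusted p 0.230). The angiopoietin receptor Tek and its partner Tie1 were lower at log2 fold changes of −1.62 and −1.06, and the TGF-β co-receptor Eng at −1.34. Of the surface and secreted genes, Itm2a and Emcn (endomucin) were higher in choroid plexus, at log2 fold changes of 1.54 and 1.52, and Egfl7, Ly6c1, Apold1 and Vwf (von Willebrand factor) were lower, at −0.83, −1.35, −1.44 and −1.87.

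All 4 endothelial transcription factors with a row were lower in choroid plexus. Sox18 was 0.564, 1.20 and 8.28 CPM there, against 4.38, 8.39 and 12.8 CPM in hippocampus (log2 fold change −2.29, SE 0.12, adjusted p 1.93e-29). Sox17, its relative in arterial endothelium, and the flow-responsive factors Klf2 and Klf4 had log2 fold changes of −1.79, −1.99 and −1.16.

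Among pericyte genes, Rgs5, a regulator of G-protein signalling, was 0.330, 2.04 and 11.3 CPM in choroid plexus, against 9.40, 14.7 and 23.5 CPM in hippocampus (log2 fold change −2.48, SE 0.15, adjusted p 2.52e-25). Pdgfrb, the receptor that recruits pericytes, had medians of 7.32 CPM in choroid plexus and 26.3 CPM in hippocampus (log2 fold change −1.56, SE 0.14, adjusted p 2.03e-17). Abcc9, a subunit of the pericyte potassium channel, had medians of 1.37 CPM in choroid plexus and 6.71 CPM in hippocampus (log2 fold change −1.91, SE 0.10, adjusted p 3.56e-30). Cspg4, the proteoglycan NG2, which precursors of oligodendrocytes also carry, had medians of 6.03 CPM in choroid plexus and 24.1 CPM in hippocampus (log2 fold change −1.88, SE 0.08, adjusted p 4.83e-34). Notch3 was lower too (−1.21), whereas Vtn (vitronectin) and Anpep (aminopeptidase N) were higher, at 0.33 and 0.70.

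The smooth muscle genes were low in both tissues. Tagln had medians of 2.72 CPM in choroid plexus and 3.02 CPM in hippocampus and did not pass (0.11, adjusted p 0.552), nor did Des, with medians of 1.00 and 1.29 CPM in the same order (−0.02, adjusted p 0.911). Acta2, smooth muscle actin, and Myh11, its myosin heavy chain, were lower in choroid plexus on the log scale, at −0.54 and −0.63, but their mean CPM was higher there: 5.50 ± 14.2 in choroid plexus against 4.10 ± 1.54 in hippocampus for Acta2, and 4.34 ± 10.8 against 4.02 ± 2.04 for Myh11 (SD, n = 34 and 38). YS C430 alone held 80.3 CPM of Acta2 and 60.4 CPM of Myh11.

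**Figure D2:**
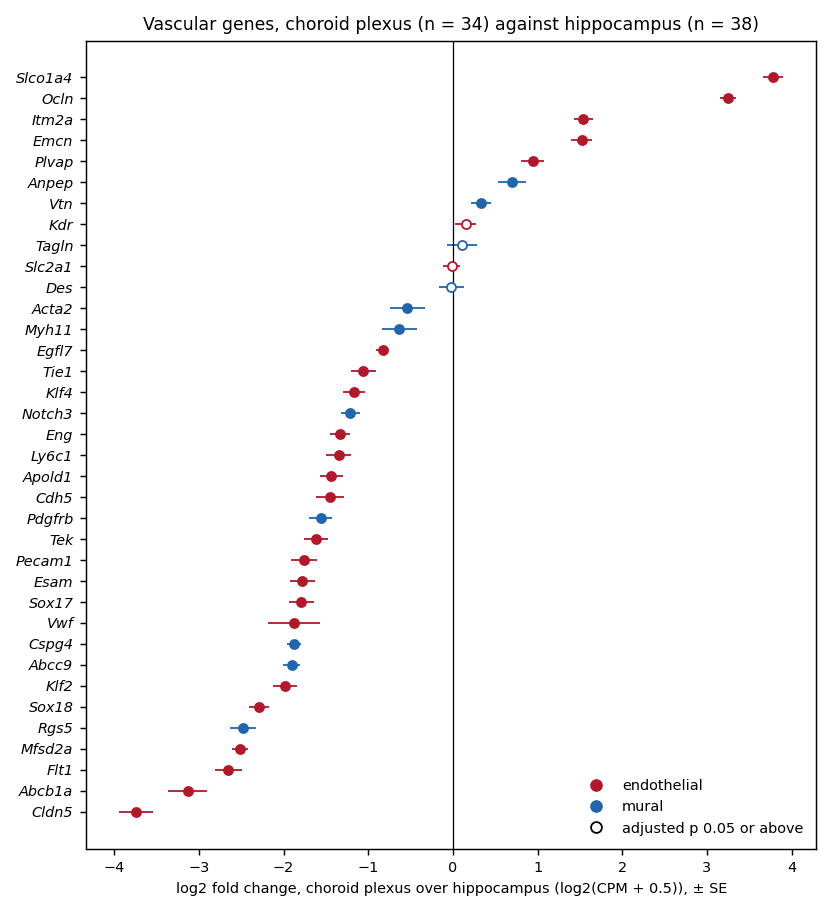
Log2 fold change (log2(CPM + 0.5) scale) ± SE of the 36 vascular genes, choroid plexus (n = 34 libraries) over hippocampus (n = 38), from the limma fit over 12609 genes; red, endothelial; blue, mural; open circles, adjusted p of 0.05 or above. From the top, Slco1a4 (3.78) and Ocln (3.25) lead the 7 genes higher in choroid plexus, and Cldn5 (−3.74) and Abcb1a (−3.13) are at the bottom.

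Levels per kilobase of exon, which allow genes to be set beside each other, gave a different order of the genes in each tissue. In choroid plexus the medians were led by Vtn (39.0 CPM per kilobase), Ocln (32.5), Itm2a (31.9), Slco1a4 (31.3) and Slc2a1 (29.6), after which Plvap followed at 4.93. In hippocampus they were led by Vtn (34.8 CPM per kilobase), Cldn5 (27.4), Slc2a1 (25.5), Itm2a (9.44), Mfsd2a (8.81) and Eng (8.04). Vtn thus led both orders, and Cldn5, second in hippocampus, stood at 1.27 CPM per kilobase in choroid plexus. In YS C430, Pecam1 was 59.7 CPM against a choroid plexus median of 5.26 CPM. Ocln was 146 CPM there (median 137), Slco1a4 241 (201) and Slc2a1 161 (104), while Vtn was 712 (79.2) and Itm2a 196 (55.6). Which cells express these genes in choroid plexus was not tested. The 4 genes not analysed in choroid plexus had hippocampal medians of 4.27 (Erg), 2.75 (Kcnj8), 1.29 (Higd1b) and 1.77 CPM (Ndufa4l2).

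The same 7 genes higher and 25 lower were called without YS C430 (median −1.41) and without both YS C430 and Sham C434 (median −1.45), and in the 18 Sham libraries alone 4 were higher and 23 lower. The shares of all genes called higher and lower in these reduced fits are not given here. Within animal numbers below 420, and again above 420, 9 of 36 differences were positive and 27 negative.

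Further vascular lists are given beside the 46.6% of all genes that were higher in choroid plexus and the 44.2% that were lower. Of other angiogenic ligands and receptors 16 of 23 were lower in choroid plexus and 6 higher, and of other mural genes 9 of 16 were lower and 4 higher. Of the junction and barrier programme 11 of 17 were higher in choroid plexus and 6 lower, of further barrier transporters 9 of 18 higher and 7 lower, of vascular basement membrane genes 7 of 12 higher and 4 lower, of arterial and venous genes 6 of 11 higher and 5 lower, and of genes of fenestrated endothelium 1 of 4 higher and 3 lower. Abcg2 (2.19) and Abcc4 (2.88), both efflux pumps, were among the transporters that were higher in choroid plexus, and Acvrl1 (−1.32), an endothelial receptor for bone morphogenetic proteins, among the receptors that were lower.

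In choroid plexus, no vascular gene passed the test between the infusion arms, and neither did any other gene: 0% of 13662 genes were called in YS against Sham, 0% in YS against YDS and 0% in YDS against Sham. The values nevertheless leaned to YS. In YS against Sham, 35 of 36 log2 fold changes were positive, where 68.3% of all genes were, with a median of 0.39 against 0.03 over all genes, and in YS against YDS 34 of 36 were, where 53.1% of all genes were, with a median of 0.50 against 0.01. In YDS against Sham 13 were positive and 23 negative, and the median was −0.09. The 3 comparisons share libraries and are not independent of each other. In YS against Sham and in YDS against Sham, edgeR and DESeq2 on recovered reads also called 0.

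In YS against Sham, 2 genes had an unadjusted p under 0.05, where 2.11% of all genes did. Apold1, which endothelial cells switch on under stress, was 1.17, 1.91 and 5.27 CPM in YS, against 0.993, 1.45 and 2.07 CPM in Sham (log2 fold change 0.47, SE 0.21, p = 0.0285 and adjusted p 1.00 by limma). Cldn5 was 1.63, 2.40 and 47.4 CPM in YS, against 0.732, 1.51 and 20.6 CPM in Sham (log2 fold change 1.00, SE 0.49, p = 0.0494 and adjusted p 1.00 by limma). The arms overlapped for both genes, and the spread of Cldn5 within an arm came from a few libraries: YS C430 (47.4 CPM), YS C429 (14.2), YS C422 (12.9), YS C427 (8.53) and YS C428 (5.08) stood above the other 7 YS libraries, which lay at 1.63 to 2.86 CPM, and Sham C434 at 20.6 CPM stood above the other Sham libraries. The mural genes with the smallest p were Anpep (median 4.74 CPM in YS and 3.50 CPM in Sham, log2 fold change 0.64, SE 0.38) and Vtn (89.5 CPM in YS and 76.6 CPM in Sham, 0.45, SE 0.28), and neither reached an unadjusted p of 0.05 (p = 0.103 and p = 0.112 by limma). Without YS C430 their log2 fold changes were 0.36 for Anpep and 0.21 for Vtn.

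In YS against YDS, 10 of 36 genes had an unadjusted p under 0.05, where 7.51% of all genes did, all of them higher in YS. Cldn5 was 0.964, 1.35 and 3.74 CPM in YDS, below the YS values given above (log2 fold change 1.27, SE 0.42, p = 0.00488 and adjusted p 0.313 by limma). Ly6c1, a surface antigen of endothelium, was 2.42, 5.10 and 25.9 CPM in YS, against 1.88, 3.07 and 5.36 CPM in YDS (0.78, SE 0.28, p = 0.00751 and adjusted p 0.349 by limma). Vtn was 53.6, 89.5 and 712 CPM in YS, against 57.5, 76.7 and 95.3 CPM in YDS (0.52, SE 0.24, p = 0.0375 and adjusted p 0.580 by limma). Des, the intermediate filament of muscle, was 0.542, 1.25 and 10.4 CPM in YS, against 0.515, 0.842 and 1.25 CPM in YDS (0.56, SE 0.26, p = 0.0382 and adjusted p 0.585 by limma). The highest value of each of these 4 genes came from YS C430, and the arms overlapped for each. The other 6 were Myh11 (log2 fold change 0.88), Sox17 (0.69), Esam (0.67), Klf2 (0.57), Apold1 (0.43) and Egfl7 (0.30). Without YS C430 the log2 fold change was 0.27 for Vtn, 0.34 for Des, 0.51 for Myh11 and 0.19 for Egfl7, and 4 of the 36 genes had an unadjusted p under 0.05 by limma. The share of all genes under that p without YS C430 is not given here, and the 7.51% above is from the fit with it.

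On read counts recovered from the CPM, which keep the weight of a high library, edgeR called 2 of the 36 genes in YS against YDS (Cldn5 at a log2 fold change of 2.22 and Myh11 at 2.14) and DESeq2 called 5 (Cldn5, Abcb1a, Ly6c1, Vtn and Sox17). Without YS C430 edgeR called 0 and DESeq2 kept Cldn5 (1.50, adjusted p 0.0490). The shares of all genes called by edgeR and DESeq2 are not given here, so these counts cannot be set against all genes. On the log scale, without YS C430 the medians were 0.20 in YS against Sham and 0.27 in YS against YDS, and the log2 fold change of Cldn5 was 0.70 and 0.98. On recovered reads without YS C430 the lean against Sham was smaller, with 22 of 36 log2 fold changes positive and a median of 0.03 by edgeR (32 and 0.53 with that library) and 24 positive with a median of 0.05 by DESeq2 (30 and 0.51), while against YDS 33 were positive with a median of 0.32 by edgeR. Without both YS C430 and Sham C434 the median in YS against Sham was 0.40 and that in YDS against Sham 0.11. The lean to YS was larger in the animals numbered above 420 (33 of 36 positive, median 0.51, 8 YS and 4 Sham libraries) than in those numbered below 420 (22 of 36 positive, median 0.08, 4 YS and 4 Sham libraries); for YS against YDS the medians were 0.68 (8 and 8 libraries) and 0.06 (4 and 6). The difference between the number ranges was not tested. Below 420, Ocln was 59.4 to 79.5 CPM in the YS libraries and 64.7 and 63.0 CPM in Sham C406 and C408. It was 127 and 132 CPM in Sham C409 and C410, and 119 to 169 CPM in all libraries above 420. The fibroblast sums divided these Sham libraries, at 2536 and 2500 CPM in C406 and C408, against 3325 and 4383 CPM in C409 and C410. The part of this division in the arm differences was not tested.

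Markers of other cells moved with the lean to YS. In YS against YDS the 6 astrocyte markers were all positive with a median log2 fold change of 1.43, the 6 oligodendrocyte markers with 0.95, the 6 microglial markers with 0.63 and the 10 fibroblast markers with 0.48, and in YS against Sham these medians were 0.98, 0.26, 0.38 and 0.49. The summed astrocyte level was 135 to 989 CPM over YS, 127 to 257 CPM over YDS and 158 to 733 CPM over Sham libraries, and the oligodendrocyte sum 96.0 to 839, 92.5 to 145 and 103 to 360 CPM. None of the 6 astrocyte markers was at 0 in any choroid plexus library. Their part in the vascular values was not tested.

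In YDS against Sham, no vascular gene had an unadjusted p under 0.05, where 1.43% of all genes did. The genes with the smallest p were Sox17 (median 0.656 CPM in YDS and 0.624 CPM in Sham, log2 fold change −0.32, SE 0.31), Tek (2.55 and 3.11 CPM, −0.30, SE 0.34), Myh11 (1.68 and 1.38 CPM, −0.51, SE 0.48) and Notch3 (5.59 and 4.95 CPM, 0.21, SE 0.23). For Sox17 and Myh11 the medians ran against the sign of the fold change, and Sham C434 held the highest Sham value of both, 4.11 and 25.7 CPM, as it did for Tek at 14.6 CPM. Without YS C430 and Sham C434 the log2 fold changes were −0.07 for Sox17, −0.03 for Tek and −0.05 for Myh11.

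**Figure D3:**
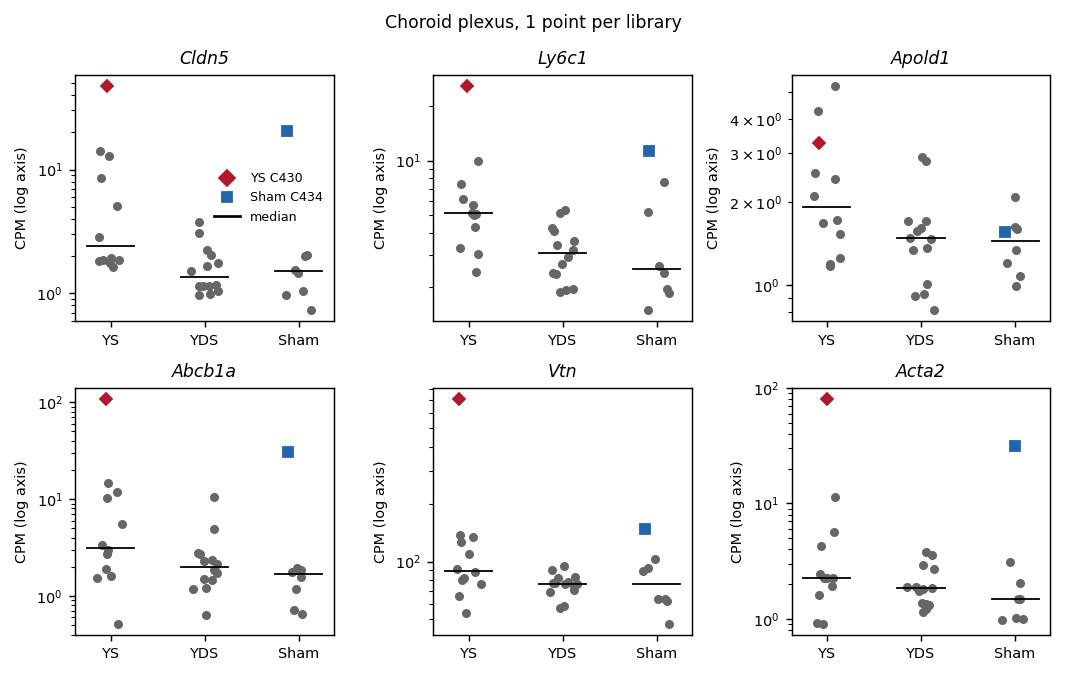
CPM (log axis) of 6 vascular genes in choroid plexus, 1 point per library, by arm (YS, n = 12; YDS, n = 14; Sham, n = 8), with the median of each arm as a line; red diamond, YS C430; blue square, Sham C434. Both marked libraries lie far above the medians of their arms for Cldn5, Abcb1a and Acta2 (Cldn5, 47.4 CPM in YS C430 and 20.6 CPM in Sham C434), while the highest value of Apold1 is that of YS C422 (5.27 CPM).

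In hippocampus, 0 of 40 vascular genes passed in YS against Sham, where 0.0346% of 14440 genes did, 0 passed in YS against YDS and 0 in YDS against Sham, where 0% of all genes did in each. In YS against Sham 21 log2 fold changes were positive and 19 negative, with a median of 0.01: 10 positive and 16 negative among endothelial genes, and 11 positive and 3 negative among mural genes. The share of all genes that were positive in hippocampus is not given here, so this split cannot be set against it. In the animals numbered above 420, 12 were positive and 28 negative (median −0.16, 8 YS and 4 Sham libraries), and in those numbered below 420, 18 and 22 (median −0.02, 6 and 6 libraries). For YDS against Sham the medians in the same ranges were −0.17 above 420 and close to 0 below, and without Sham H435 the median in YS against Sham was 0.07. The largest in size were negative, and 5 of 40 genes had an unadjusted p under 0.05, where 17.4% of all genes did.

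Plvap was 2.16, 3.66 and 11.2 CPM in YS, against 1.96, 7.21 and 11.6 CPM in Sham (log2 fold change −0.64, SE 0.22, p = 0.00611 and adjusted p 0.133 by limma). Kdr was 12.6, 17.9 and 26.7 CPM in YS, against 7.16, 14.3 and 22.3 CPM in Sham (0.40, SE 0.15, p = 0.00985 and adjusted p 0.159 by limma). Ndufa4l2, a hypoxia-responsive gene of pericytes, was 0, 1.38 and 2.66 CPM in YS, against 1.06, 2.27 and 3.60 CPM in Sham (−0.66, SE 0.24, p = 0.00839 and adjusted p 0.149 by limma). The arms overlapped for all 3, but 1 of 14 YS libraries lay above the Sham median for Plvap, 2 of 14 for Ndufa4l2 and 12 of 14 for Kdr. In the animals numbered below 420, Plvap was 2.16 to 4.38 CPM in YS and 6.26 to 11.6 CPM in Sham, without overlap. Above 420 it was 2.63 to 11.2 CPM in YS and 1.96 to 6.85 CPM in Sham. For Kdr and Ndufa4l2 the arms overlapped in both ranges. Kcnj8, the pore subunit of the pericyte potassium channel, had medians of 2.24 CPM in YS and 3.28 CPM in Sham (−0.48, SE 0.22), and Itm2a of 15.3 CPM in YS and 23.0 CPM in Sham (−0.35, SE 0.16).

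In YS against YDS, only Ndufa4l2 of the 40 had an unadjusted p under 0.05, where 6.29% of all genes did, with a median of 1.91 CPM in YDS (log2 fold change −0.49, SE 0.22, p = 0.0287 and adjusted p 0.744 by limma). Kdr (median 15.0 CPM in YDS, 0.27), Anpep (3.14 CPM in YS and 1.99 CPM in YDS, 0.37) and Vwf (31.0 CPM in YS and 21.4 CPM in YDS, 0.36) followed and did not pass. In YDS against Sham 2 genes had an unadjusted p under 0.05, where 12.4% of all genes did. Itm2a was 10.4, 14.8 and 29.7 CPM in YDS, against 15.3, 23.0 and 31.8 CPM in Sham (−0.43, SE 0.16, p = 0.00987 and adjusted p 0.327 by limma). Slco1a4 was 6.87, 9.82 and 33.5 CPM in YDS, against 6.69, 22.5 and 32.6 CPM in Sham (−0.71, SE 0.26, p = 0.0105 and adjusted p 0.328 by limma). Kcnj8 (−0.24) and Des (−0.26) were the mural genes with the smallest p there. For both Itm2a and Slco1a4, 1 of 14 YDS libraries lay above the Sham median. Below 420, Itm2a was 10.4 to 20.2 CPM in YDS and 17.8 to 31.8 CPM in Sham, and Slco1a4 7.49 to 15.1 and 11.9 to 32.6 CPM. Above 420, Itm2a was 12.6 to 29.7 CPM in YDS and 15.3 to 21.8 CPM in Sham, and Slco1a4 6.87 to 33.5 and 6.69 to 23.5 CPM. All 3 of Plvap, Itm2a and Slco1a4 are genes with higher levels in choroid plexus than in hippocampus, and the summed level of choroid plexus epithelial genes in these hippocampal libraries had medians of 184 CPM in YS, 160 CPM in YDS and 180 CPM in Sham; its part in the values was not tested. Without Sham H435, 0 of 40 genes passed in each of the 3 comparisons, and edgeR and DESeq2 on recovered reads also called 0.

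The difference between the tissues in the YS effect was tested as such, in 1 fit over both tissues. None of the 36 genes passed, and 0% of 12609 genes did; edgeR also called 0. With an unadjusted p under 0.05, reached by 8.60% of all genes, were Ly6c1 (difference of log2 fold changes, choroid plexus minus hippocampus, 0.92, SE 0.36, p = 0.0123 and adjusted p 0.547 by limma) and Cldn5 (1.12, SE 0.50, p = 0.0263 and adjusted p 0.552 by limma). Des and Pdgfrb had the smallest p of the mural genes, at differences of 0.69 and 0.49; without YS C430 that of Pdgfrb was 0.23.

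In the Klotho mice, 3 of 40 vascular genes differed between Klko and WT-y, 2 higher and 1 lower, where 11.3% of 14964 genes differed, 4.83% higher and 6.44% lower. The share was thus not above that of all genes. The 3 called genes were a receptor of endothelium, a transcription factor of arterial endothelium and a filament protein of muscle, and their values by library were as follows.

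Kdr was 15.0, 12.4, 15.5 and 14.6 CPM in Klko, against 21.7, 20.1, 18.5 and 25.0 CPM in WT-y, or 14.4 ± 1.37 against 21.3 ± 2.77 (SD, n = 4 each), a log2 fold change of −0.55 (SE 0.13, adjusted p 0.0174 by limma). Every Klko library lay below every WT-y library (replicates are numbered as in the labels). Sox17 was 8.80, 11.9, 12.6 and 10.7 CPM in Klko, against 5.30, 9.13, 5.16 and 7.06 CPM in WT-y, or 11.0 ± 1.65 against 6.66 ± 1.86, a log2 fold change of 0.70 (SE 0.19, adjusted p 0.0262 by limma). The groups overlapped in 1 library of each, Klko 1 and WT-y 2. Des was 2.20, 2.56, 1.89 and 1.84 CPM in Klko, against 1.27, 1.47, 0.991 and 1.07 CPM in WT-y, or 2.12 ± 0.332 against 1.20 ± 0.214, a log2 fold change of 0.63 (SE 0.17, adjusted p 0.0309 by limma). The groups did not overlap, though the values rest on 39 to 90 reads over the Klotho libraries.

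Kdr lies on chromosome 5 (75932827 to 75978458, minus strand), Sox17 on chromosome 1 (4490931 to 4497354, minus strand) and Des on chromosome 1 (75360329 to 75368579, plus strand) of GRCm38. The promoters of the gene that fell and of the mural gene that rose are shown since they are the regulatory sequence nearest to these 2 results; both are RefSeq windows of 300 bases on GRCm38.p6, from upstream of the start site to 50 bases after it, read along the gene. Kdr is at chr5:75978406-75978705 on the minus strand, with GGAA on either strand, the core letters bound by ETS factors such as Erg, in capitals (5 matches). Des is at chr1:75360042-75360341 on the plus strand, with CANNTG on either strand, the E-box letters, in capitals (2 matches).
Kdr: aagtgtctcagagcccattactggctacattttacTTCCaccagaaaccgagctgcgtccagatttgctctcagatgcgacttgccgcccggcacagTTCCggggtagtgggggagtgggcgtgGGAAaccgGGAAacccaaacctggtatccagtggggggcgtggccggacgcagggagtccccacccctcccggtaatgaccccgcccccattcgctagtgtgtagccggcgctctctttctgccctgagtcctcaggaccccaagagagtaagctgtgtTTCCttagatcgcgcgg
Des: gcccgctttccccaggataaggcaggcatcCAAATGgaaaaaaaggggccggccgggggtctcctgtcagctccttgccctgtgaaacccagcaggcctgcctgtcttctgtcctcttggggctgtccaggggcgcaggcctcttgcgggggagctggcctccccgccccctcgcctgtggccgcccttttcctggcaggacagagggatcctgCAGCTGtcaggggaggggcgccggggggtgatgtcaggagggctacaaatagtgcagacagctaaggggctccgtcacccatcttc
GGAA was in 96.0% of 32851 RefSeq promoter windows of this length and CANNTG in 72.3%, so that neither sets these windows apart. The CArG box, the letters bound by serum response factor at smooth muscle genes, was searched on both strands and was in 1.63% of all windows and in 0 of the 34 windows of the 28 vascular genes with an entry. At so low a share over all windows, 0 of 34 does not set these genes apart, and the other vascular genes were not searched. These are matches of letters only.

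Besides the called genes, 4 had an unadjusted p under 0.05 in Klko against WT-y, making 7 of 40, where 28.9% of all genes did. Itm2a was 43.3, 35.3, 39.6 and 38.6 CPM in Klko, against 30.6, 32.6, 30.2 and 31.7 CPM in WT-y, with no overlap (log2 fold change 0.32, SE 0.10, adjusted p 0.0538 by limma). Plvap was 12.4, 13.1, 13.1 and 11.7 CPM in Klko, against 7.81, 9.89, 7.34 and 9.05 CPM in WT-y, again with no overlap (0.54, SE 0.21, adjusted p 0.0932 by limma). Notch3, the Notch receptor of mural cells, was 24.7, 18.6, 23.6 and 27.0 CPM in Klko, against 15.9, 19.7, 14.2 and 21.0 CPM in WT-y (0.41, SE 0.14, adjusted p 0.0631 by limma). Egfl7, a secreted endothelial factor, was 33.2, 32.1, 30.5 and 26.5 CPM in Klko, against 22.9, 29.3, 23.4 and 28.1 CPM in WT-y (0.24, SE 0.10, adjusted p 0.124 by limma). Over the 40 genes 31 log2 fold changes were positive and 9 negative (median 0.16), where 46.8% of all genes were positive (median −0.02). This lean rested in part on single WT-y libraries: without WT-y 3, 24 were positive and 16 negative (median 0.08; endothelial genes 14 and 12, median 0.05), and without WT-y 2, 34 were positive (median 0.26). All 4 smooth muscle genes were positive (median 0.44), among them Tagln, at 9.44 ± 1.49 CPM in Klko and 6.56 ± 0.465 CPM in WT-y without overlap (0.48, SE 0.24, adjusted p 0.187 by limma).

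Of the further vascular lists, 7 genes were called in Klko against WT-y, where 11.3% of all genes were. Higher were Heyl, a Notch target of mural cells (log2 fold change 1.02), Sparc, a matrix protein (0.85), Foxq1 (0.63), a transcription factor of brain endothelium, and Tgfb1 (0.48). Lower were the thyroid hormone and organic anion transporter Slco1c1 (−0.54) and the junction genes Jam3 (−0.38) and Tjp1 (−0.26). This was 3 of 18 in the junction and barrier list, 1 of 20 in the transporter list, 1 of 24 in the angiogenic list, 1 of 20 in the other mural list, 1 of 12 in the basement membrane list, and 0 of 13 and 0 of 5 in the arterial and venous and fenestrated lists.

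The call of each gene depended on the libraries used. Fitted on the 8 Klko and WT-y libraries alone, none of the 3 passed (adjusted p 0.0792 for Kdr, 0.0983 for Sox17 and 0.100 for Des by limma). Leaving out single libraries gave 0 calls without WT-y 1, 1 without Klko 3 or WT-y 3, and 8 without WT-y 2. Dissection markers moved with the groups: the 10 striatal neuron genes were all positive in Klko against WT-y (median 1.18), with sums of 304 to 2753 CPM in Klko and 243 to 1531 CPM in WT-y, and the 15 choroid plexus epithelial genes were all negative (median −1.09), with sums of 506 to 6881 CPM in Klko and 3474 to 11063 CPM in WT-y. The epithelial list includes Kl, the gene knocked out in Klko, whose sign was thus set by the genotype. Without the 4 libraries highest in striatal genes (Klko 4, WT-o 2, Klko 1 and WT-y 2), 7 vascular genes were called, Kdr (−0.62), Sox17 (1.02) and Des (0.75) with them. The shares of all genes called in the fits on fewer libraries are not given here, so these counts cannot be set against all genes.

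**Figure D4:**
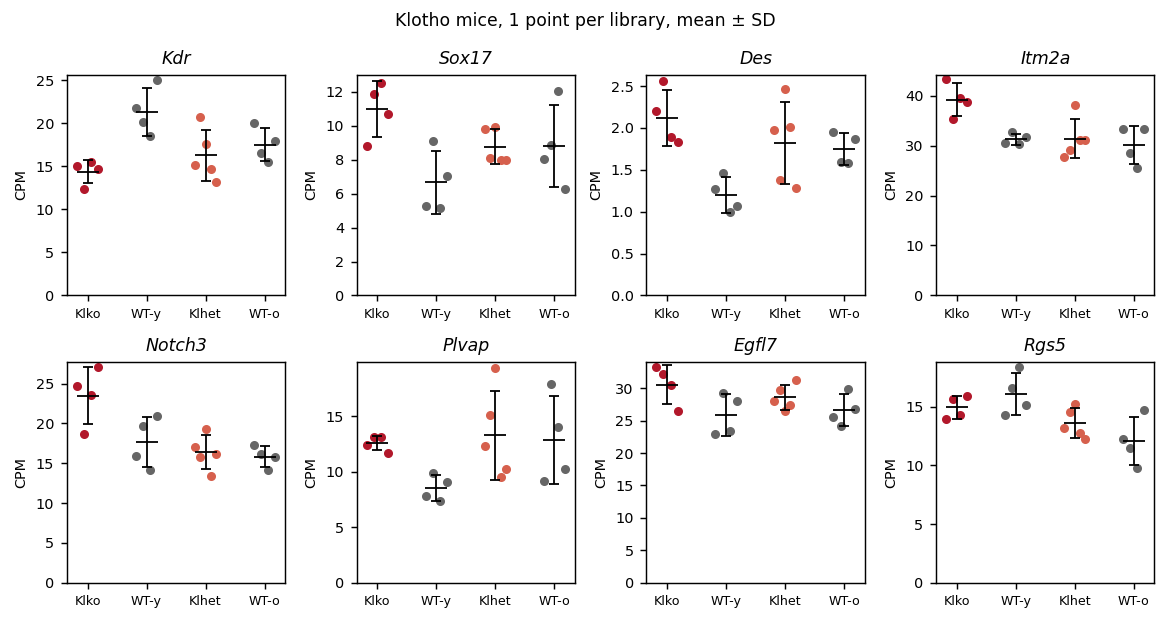
CPM of 8 vascular genes in the Klotho mice, 1 point per library, with mean ± SD, in Klko (n = 4), WT-y (n = 4), Klhet (n = 5) and WT-o (n = 4). Kdr is below every WT-y value in all Klko libraries, Des and Itm2a are above, and the Klhet and WT-o points overlap in all 8 panels.

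In Klhet against WT-o, 0 of 40 vascular genes passed, where 0% of all genes did, and 0 had an unadjusted p under 0.05, where 11.3% of all genes did. Both edgeR and DESeq2 also called 0. The 3 genes called in Klko were close to level: Kdr was 16.3 ± 2.96 CPM in Klhet and 17.5 ± 1.95 CPM in WT-o (log2 fold change −0.11, SE 0.12), Sox17 8.77 ± 1.02 and 8.81 ± 2.42 CPM (0.02, SE 0.18), and Des 1.82 ± 0.489 and 1.75 ± 0.190 CPM (0.03, SE 0.16; n = 5 and 4). The smallest p belonged to Higd1b, a pericyte gene, at 0.965, 0.978, 1.31, 1.06 and 1.70 CPM in Klhet, against 0.960, 0.921, 0.775 and 0.870 CPM in WT-o (0.29, SE 0.17), to Rgs5 (13.6 ± 1.26 CPM in Klhet and 12.0 ± 2.06 CPM in WT-o, 0.18), and to Apold1 (0.82, SE 0.48) and Klf2 (0.89, SE 0.55). Klf2 ranged over 32.4 to 58.8 CPM in Klhet and 9.72 to 45.5 CPM in WT-o. Both Apold1 and Klf2 varied widely among libraries of 1 group, and WT-y 2, which had the highest summed level of 10 immediate early genes (2348 CPM), was also the highest WT-y library for both, at 17.5 and 45.5 CPM.

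The effects of the 2 genotypes were compared with each other in the same fit. None of the 40 genes passed, and 0% of all genes did, and edgeR and DESeq2 also called 0. With an unadjusted p under 0.05, reached by 8.87% of all genes, were Sox17 (Klko minus Klhet effect 0.68, SE 0.26, adjusted p 0.470 by limma), Des (0.60, SE 0.24, adjusted p 0.483 by limma), Kdr (−0.44, SE 0.18, adjusted p 0.503 by limma) and Slco1a4 (0.41, SE 0.18, adjusted p 0.514 by limma). Notch3 followed at 0.37. A response in Klko that differs from that in Klhet was thus not shown for any of the 3 called genes, and genotype dose and age cannot be told apart in this contrast.

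Between the WT groups of the 2 ages, 0 of 40 genes passed in WT-o against WT-y, where 0.0468% of all genes did, and 5 had an unadjusted p under 0.05, where 8.01% of all genes did. Rgs5 was 12.2, 11.5, 9.76 and 14.7 CPM in WT-o, against 14.3, 16.6, 18.4 and 15.1 CPM in WT-y (log2 fold change −0.41, SE 0.12, adjusted p 0.301 by limma). Mfsd2a was 22.9, 15.2, 16.7 and 17.1 CPM in WT-o, against 23.7, 28.7, 23.7 and 22.0 CPM in WT-y (−0.45, SE 0.13, adjusted p 0.316 by limma). Higd1b was 0.882 ± 0.0800 CPM in WT-o and 1.50 ± 0.153 CPM in WT-y, with no overlap (−0.53, SE 0.17, adjusted p 0.353 by limma). Plvap (0.53, adjusted p 0.488) and Des (0.41, adjusted p 0.549) went the other way. The 10 pericyte genes were all negative, also with TMM or relative log scaling, with a median of −0.24 (9 of 10 negative with edgeR and with DESeq2 on recovered reads), where 56.6% of all genes were positive, and among the smooth muscle genes Acta2, Tagln and Myh11 were negative and Des positive. Without WT-y 2, WT-y 4 or WT-o 2, 9 of the 10 were negative, and without WT-o 3 or the 4 libraries highest in striatal genes 8 were. The median was −0.15 without WT-y 4. Single libraries decided this count too: without WT-y 2 Flt1 was called (0.55, adjusted p 0.0130 by limma), and without the 4 libraries highest in striatal genes Klf2 (1.64), Klf4 (1.08), Flt1 (0.56) and Abcb1a (0.51) were. The shares of all genes called without these libraries are not given here. In the fit over all 17 libraries, edgeR and DESeq2 called 0 of 40.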

How the data were processed

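Bulk RNA-seq of 72 infused libraries (34 choroid plexus, 38 hippocampus) and 17 Klotho libraries was used. Per the labels, the authors counted reads with featureCounts on mm10 and deposited CPM, reads scaled to the library's own total with no scaling factors. The CPM were whole multiples of 1 read for 100% of values in all 89 libraries (tolerance 0.05 read), which gave the reads and the depth. The tables also hold the authors' fold changes and p-values from edgeR, which were not used. All columns of per-sample values matched a sample. The members and all gene lists were chosen with earlier results of these data known.

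Log2(CPM + 0.5) was tested with limma 3.58.1 (R 4.3.3, trend, two-sided), with Benjamini-Hochberg adjustment over all genes of a fit and a threshold of 0.05: 1 fit per infused tissue, 1 over the 12609 genes of both tissues with arm as a term, and 1 over the 4 Klotho groups. A fold change on this scale understates the change of low genes. Nothing says that the replicates of a group came from separate litters or batches, so p-values measure the spread between these mice. Alternatives were pseudocounts of 0.1 and 1, a filter at 1 CPM, TMM and relative log (RLE) factors, edgeR 4.0.16 and DESeq2 1.42.0 on the recovered reads, only the groups compared, the number block and leaving out each Klotho replicate. Those without YS C430, Sham C434, Sham H435 or the 4 libraries highest in striatal genes, and with the range of animal numbers as a term, were chosen after seeing the data. The fits were tested on simulated reads first.

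Full statistics are given for all called members where 8 or fewer were called, otherwise for the 4 endothelial and 4 mural members with the smallest p, and where none was called for the 2 and 2 with the smallest p. Values by library are given for members called or with an unadjusted p under 0.05. Members named beyond this were chosen after their values were seen. Gene coordinates and merged exon lengths are from GENCODE for GRCm38, promoters from RefSeq. Choroid plexus and hippocampus of 1 mouse share its number: the 34 pairs had a median correlation of deviations from their group means of 0.0150, 5 of them over 0.1, and the block again gave 7 genes higher and 25 lower.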

Additional observations from a re-analysis of the deposited data

Results flagged for a closer look

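Within single groups, 32 of the 236 gene and group pairs looked at held 1 library that stood apart from the others by Dixon's test; chance alone flags about 1 in 20 groups. Choroid plexus Sham C434 gave 19 of these. Among its endothelial genes it held 22.5 CPM of Pecam1, 17.5 of Cdh5, 20.6 of Cldn5, 12.8 of Esam, 37.0 of Flt1, 14.6 of Tek, 16.1 of Tie1, 19.7 of Egfl7, 114 of Vwf, 30.4 of Abcb1a, 4.11 of Sox17, 4.35 of Sox18 and 4.99 of Klf4. Among its mural genes it held 24.0 CPM of Pdgfrb, 15.6 of Anpep, 31.3 of Acta2, 14.1 of Tagln, 25.7 of Myh11 and 4.35 of Des. The other Sham libraries had medians of 5.04 CPM of Pecam1, 1.47 of Cldn5, 3.29 of Vwf and 1.47 of Acta2. The arm of YS C430 held 12 libraries, too many for this test.

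Hippocampal Sham H435 stood apart for Pecam1 (48.9 CPM), Esam (21.7 CPM), Klf2 (30.8 CPM) and Acta2 (7.04 CPM). In the Klotho mice, WT-y 2 stood apart for Apold1 (17.5 CPM), Abcb1a (44.0 CPM), Klf2 (45.5 CPM) and Klf4 (21.2 CPM), and Klko 3 for Klf2 (69.5 CPM). WT-o 1 stood apart for Pdgfrb (29.9 CPM), Anpep (5.79 CPM) and Acta2 (11.6 CPM), and Klhet 3 for Myh11 (8.99 CPM). Among the 4 WT-y 2 genes, Apold1, Klf2 and Klf4 respond quickly to stimuli in endothelium as background knowledge, and that library also had the highest summed immediate early genes of the 17, at 2348 CPM. No cause was tested for any of these libraries.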

How the results depend on the processing

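Among the counts of called vascular genes, 163 of 175 values under the alternatives stayed on the same side, within 1.5 times. These include comparisons in which 0 genes were called throughout, where the count could only stay or rise. In Klko against WT-y, 3 genes were called; DESeq2 called 5, the fit on only the 2 groups 0, the fit without the 4 libraries highest in striatal genes 7, and fits without 1 replicate 0 to 8. In WT-o against WT-y these last 2 gave 4, and 0 to 1. In choroid plexus YS against YDS, edgeR called 2, DESeq2 5 and DESeq2 without YS C430 1. The shares of all genes called under these alternatives are not given here. The causes were not tested, though the fit on 2 groups and those without libraries rest on fewer samples. Of the values of named genes, 693 of 714 kept their call and 0 changed sign. These include genes that were not called in the main fit. For the 3 genes called in Klko against WT-y, the call was kept under 15 alternatives and lost under 3 for Kdr. It was kept under 13 and lost under 5 for Sox17, and kept under 10 and lost under 8 for Des. Kdr (adjusted p 0.0529 without WT-y 1), Sox17 (0.0892) and Des (0.0679) each lost their call without that library. Other single libraries mattered too. The call was also lost for Kdr without WT-y 4, and for Sox17 without Klko 2, Klko 3 or WT-y 3. For Des it was also lost without Klko 1, Klko 2, Klko 3, WT-y 3 or WT-y 4.

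The numbers in the Klotho titles did not pair the mice, with correlations of same-numbered deviations between −0.48 and 0.02, and with the replicate block 2 genes were called in Klko against WT-y, Des being lost at an adjusted p of 0.0575. With the block, 0 were called in the other Klotho comparisons. Between tissues, edgeR called 7 genes higher and 23 lower, and sham libraries alone 4 and 23. The matching shares of all genes are not given here. Group means of all 464 gene and group pairs moved by less than 1 SD under TMM factors. Depth limits the lowest genes: at 1 CPM a value rests on 23.2 to 46.8 reads.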
